A study of Danio rerio with 9 samples.

Results

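The comparison described here set zebrafish intestine labelled SBM against zebrafish intestine labelled FM. It was drawn from a bulk RNA-seq series of 9 intestine libraries in 3 groups of 3, named SBM, FM and D3. The members were 6 of the 9 libraries, chosen by their titles: SBM 1, SBM 2 and SBM 3 against FM 1, FM 2 and FM 3. The series title speaks of enteritis caused by soybean meal and of a shikonin ester, but the labels do not spell out the 3 group codes. The labels used here give no strain, age, sex, feed composition or feeding time for either group, and they do not say whether a library came from 1 fish or from a pool. The p-values therefore measure the spread between these libraries, which may in part be technical.

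The intestinal lining of zebrafish is a single sheet of epithelium. Most of its cells are absorptive enterocytes, whose brush border carries the enzymes and transporters that take up fat, peptides, sugars and ions. In a posterior segment, lysosome-rich enterocytes take up whole protein. Goblet cells, enteroendocrine cells and resident immune cells lie among or beneath them, and smooth muscle and nerves form the wall. Plant proteins in fish feed are known to inflame the distal intestine of several farmed species, with shortened folds, fewer supranuclear vacuoles and infiltrating leukocytes.

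The 6 libraries held 34436497 to 36203230 counts, so depth was nearly equal. Markers of intestinal epithelium were present in all 6. CPM below are counts scaled to a common library total. The villin gene vil1 had 1038, 1349 and 955 CPM in SBM libraries and 1681, 1800 and 1810 CPM in FM libraries, and the epithelial adhesion gene epcam had 43.7 to 636 CPM in SBM libraries and 21.6 to 27.8 CPM in FM libraries. Genes of neighbouring organs were also present and differed between libraries of the same group. Genes of a list of 36 oocyte markers took 1.33%, 0.0387% and 0.193% of the counts in SBM 1, SBM 2 and SBM 3, and 0.0118% to 0.0356% in the FM libraries. A list of 38 hepatocyte genes took 0.705%, 5.08% and 0.197% in the SBM libraries and 0.312% to 0.717% in the FM libraries. Genes of the exocrine pancreas took 14.7% to 20.3% in SBM and 17.9% to 22.9% in FM libraries. The SBM libraries were less alike than the FM libraries. Spearman correlations across genes were 0.869 for SBM 1 with SBM 2, 0.920 for SBM 1 with SBM 3 and 0.920 for SBM 2 with SBM 3. Among the FM libraries they were 0.973 to 0.976. SBM 1 correlated at 0.975 with the third D3 library. Over all genes, the SD of log2 CPM within a group had a median of 0.458 in SBM and 0.256 in FM.

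All genes were tested together with edgeR's quasi-likelihood test, with CPM scaled by TMM, a normalisation that assumes most genes are unchanged. No gene of 19450 tested passed an adjusted p of 0.05, and the smallest adjusted p was 0.541 (edgeR). At an unadjusted p under 0.05, 1075 genes (5.53%) were higher in SBM and 663 (3.41%) were lower. DESeq2, run on the same counts, called 112 genes higher and 23 lower, which is 0.563% and 0.116% of the genes it gave an adjusted p. Limma-voom called none. As no gene was called by the test chosen as main, genes are described by their value in every library and by whether the groups overlapped. Every SBM library lay below every FM library for 2001 genes (10.3%) and above for 1860 genes (9.56%). SBM 1 was the most extreme SBM library for 1624 of the 1860 and for 1397 of the 2001. The scaling moved this background: with CPM of the library total alone, 565 genes (2.9%) lay below and 2426 (12.5%) above, and the median log2 fold change of all genes moved to 0.26, against -0.01 with TMM. Counts for most gene lists below are therefore given under both scalings, to be read against these shares.

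Among genes lower in every SBM library with a descriptive name, a mean of at least 5 CPM and no place in a list of another organ, ydjc and hmox1a had the smallest unadjusted p (0.000112 and 0.00014, edgeR). hmox1a, the inducible haem oxygenase that splits haem into biliverdin, iron and carbon monoxide, had 29.6, 26.7 and 12.2 CPM in SBM 1 to SBM 3, against 233, 140 and 121 CPM in FM 1 to FM 3. Every SBM value was far below the lowest FM value. Its log2 fold change was -2.85 ± 0.44 (SE), and it ran from -3.11 to -2.53 when each library of either group was left out in turn. The adjusted p for hmox1a was 0.541 with edgeR and 8.01e-06 with DESeq2. In bulk intestine, fewer cells of a type and less RNA per cell cannot be told apart, for this and for all genes named here.

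pglyrp6, a member of the peptidoglycan recognition proteins that bind the bacterial cell wall, had 677, 1183 and 595 CPM in SBM libraries and 3941, 3198 and 5635 CPM in FM libraries. In the deposited length-normalised values, the same gene stood at 489, 621 and 444 FPKM in SBM libraries and 2155, 1823 and 3004 FPKM in FM libraries. The groups were far apart on both scales, with a log2 fold change of -2.38 ± 0.55 (SE) and a DESeq2 adjusted p of 0.018. crp6, a C-reactive protein gene of the acute phase family, was rarer and also lay below in every SBM library, with 1.09, 0.359 and 0.287 CPM in SBM libraries and 5.47, 2.72 and 10.9 CPM in FM libraries. leap2, the liver-expressed antimicrobial peptide gene that also acts as a ghrelin receptor antagonist in mammals, had 1.597, 2.58 and 1.82 CPM in SBM libraries and 5.08, 4.02 and 6.93 CPM in FM libraries. For none of the 3 did the groups overlap, under either scaling. They did not speak for their whole list of 30 antimicrobial and acute phase genes tested. In it 5 (16.7%) lay below in every SBM library and 3 (10%) above, against 10.3% and 9.56% of all genes. With library totals alone 3 (10%) lay below and 4 (13.3%) above, against 2.9% and 12.5% of all genes. The list's median log2 fold change was 0.28, or -0.01 without SBM 2. One of those above was hp, haptoglobin, a liver product, with 7.36, 8.56 and 0.814 CPM in SBM and 0.198, 0.695 and 0.0324 CPM in FM libraries.

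Carnitine carries long-chain fatty acids into mitochondria, and 3 genes of that route were lower in every SBM library under both scalings. cpt1ab, a carnitine palmitoyltransferase that starts the import, had 106, 123.2 and 135 CPM in SBM libraries against 258, 216 and 210 CPM in FM libraries (log2 fold change -0.91 ± 0.21, SE). cpt1b, its muscle-type paralogue, had 7.70, 14.9 and 11.2 CPM in SBM libraries against 23.1, 27.7 and 25.7 CPM in FM libraries. bbox1, which makes carnitine from butyrobetaine, had 24.2, 40.8 and 35.0 CPM in SBM libraries against 75.4, 63.5 and 59.23 CPM in FM libraries. Per length, cpt1ab was the more abundant of the palmitoyltransferase pair, at 28.6 to 44.7 FPKM in SBM and 49.4 to 62.2 FPKM in FM libraries, with cpt1b at 3.04 to 4.55 FPKM in SBM and 6.89 to 8.62 FPKM in FM libraries. bbox1 stood outside the fatty acid oxidation list, in which 36 of 40 genes had a negative fold change. In this list 8 (20%) lay below in every SBM library, against 10.3% of all genes. With library totals alone 4 (10%) lay below, against 2.9% of all genes. The list's median log2 fold change was -0.33, and -0.64 without SBM 2.

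Of the remaining genes that the selection rule put on the lower side, ydjc, a homologue of a bacterial chitooligosaccharide deacetylase, had 10.7, 9.11 and 9.26 CPM in SBM libraries and 24.5, 24.6 and 31.8 CPM in FM libraries. cyp2k18, a fish cytochrome P450 of family 2, had 42.9, 59.0 and 46.6 CPM in SBM libraries and 102, 138 and 129 CPM in FM libraries. rgl1, an exchange factor for Ral GTPases, had 33.5, 42.1 and 37.5 CPM in SBM libraries and 57.7, 67.4 and 65.3 CPM in FM libraries. Each of these 3 genes kept a gap between the groups larger than the spread inside either. gdap1, which encodes a protein of the outer mitochondrial membrane, had 3.17, 4.47 and 3.04 CPM in SBM libraries and 6.96, 9.88 and 7.57 CPM in FM libraries. ftr58, one of the TRIM ubiquitin ligases expanded in fish, had 9.63, 11.3 and 13.5 CPM in SBM libraries and 23.5, 22.3 and 22.07 CPM in FM libraries. vegfaa, the vascular endothelial growth factor A gene, had 11.3, 12.5 and 16.6 CPM in SBM libraries and 29.9, 21.7 and 30.3 CPM in FM libraries. Its groups overlapped when library totals alone were used. Among genes without a descriptive name, LOC110440163 had 10.2, 12.7 and 9.57 CPM in SBM libraries and 45.1, 29.0 and 24.9 CPM in FM libraries, and si:ch211-39i22.1 had 153, 212 and 162 CPM in SBM libraries and 398, 355 and 336 CPM in FM libraries. Log2 fold changes of these 8 genes ran from -1.60 to -0.75. DESeq2 gave all of them but vegfaa an adjusted p under 0.05.

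**Figure D1:**
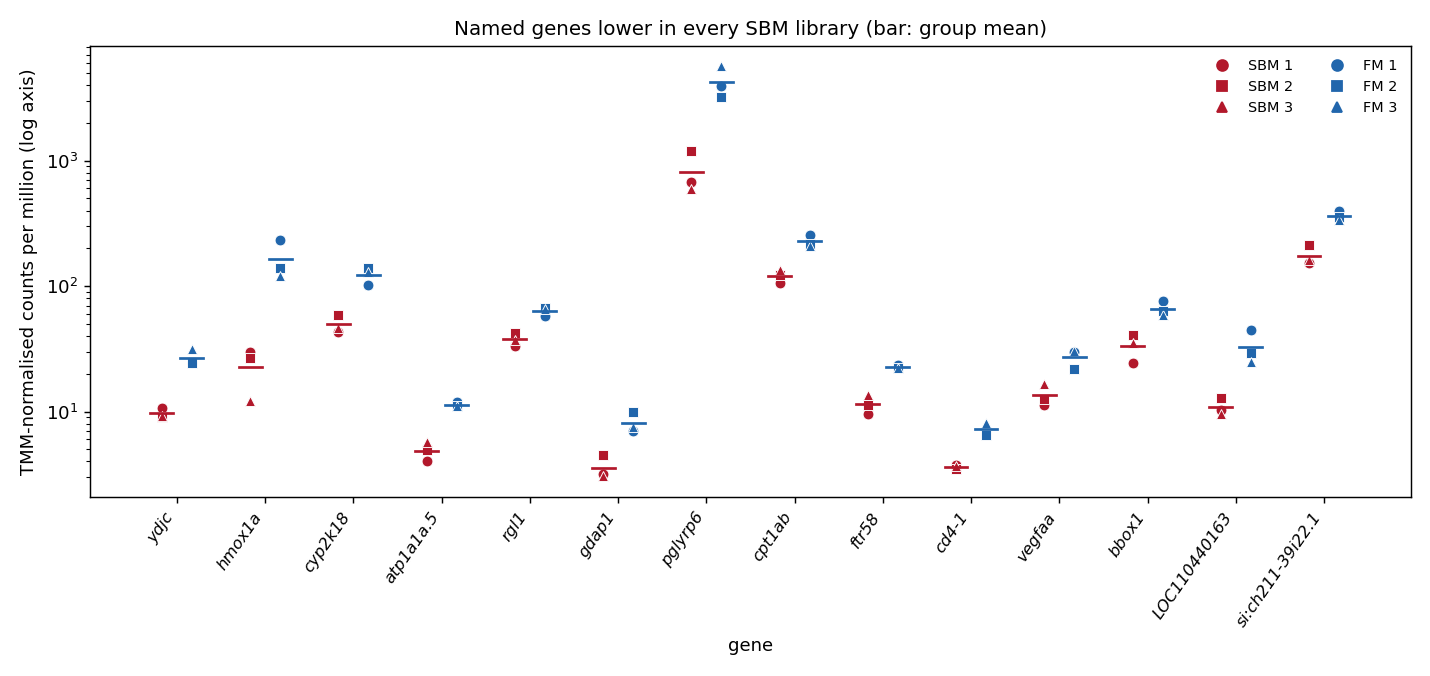
CPM (log axis) of the 14 genes with the smallest p among those lower in every SBM library, with a mean of at least 5 CPM and outside the lists of other organs, with SBM libraries in red to the left of FM libraries in blue and a bar at each group's mean. The SBM and FM points do not overlap for any of the 14, and hmox1a and pglyrp6 have the widest gaps, with log2 fold changes of -2.85 and -2.38.

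Among the 63 gene lists, brush border and epithelial adhesion genes had, with TMM, the largest share of members below in every SBM library. Of the 24 tested, 14 (58.3%) lay below in every SBM library, against 10.3% of all genes, and 6 (25%) did so with library totals alone, against 2.9%. On that scale absorptive enterocyte markers had a slightly larger share (25.9%) and interferon-stimulated genes the same (25%). The median log2 fold change of the brush border list was -0.64 with TMM, and it lay between -0.78 and -0.47 without each SBM library in turn. ezra, an ezrin gene of microvilli, had 130, 169 and 179 CPM in SBM libraries against 272, 255 and 240 CPM in FM libraries. cdh1, the E-cadherin gene of all epithelia, overlapped, at 194, 232 and 309 CPM in SBM libraries and 308, 288 and 335 CPM in FM libraries. In the list 3 genes had a positive fold change. The member that lay above in every SBM library was epcam, an epithelial adhesion gene, which had 636, 43.7 and 121 CPM in SBM libraries and 27.8, 23.1 and 21.6 CPM in FM libraries. Its order across the SBM libraries was that of the oocyte markers, and the part of oocyte RNA in its value was not tested.

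In the lists of absorptive functions, SBM 2 stood apart from the other SBM libraries. Against 10.3% and 2.9% of all genes, 7 of 27 absorptive enterocyte markers (25.9%) lay below in every SBM library under both scalings and none above. Their median log2 fold change was -0.70, and -1.18 without SBM 2. Their mean level relative to the average of the 6 libraries was -0.47, 0.94 and -1.36 log2 units in SBM 1 to SBM 3 and 0.11, 0.72 and 0.06 in FM 1 to FM 3, so that SBM 2 lay above every FM library. Of 41 fat absorption genes tested, 12 (29.3%) lay below in every SBM library and 1 above. With library totals alone 8 (19.5%) lay below, against 2.9% of all genes. mogat2, the monoacylglycerol acyltransferase that rebuilds triglyceride in enterocytes, had 57.5, 97.9 and 47.9 CPM in SBM libraries against 111, 152 and 153 CPM in FM libraries. dgat1a, which catalyses the last step of triglyceride synthesis, had 104, 160 and 102 CPM in SBM libraries against 193, 278 and 250 CPM in FM libraries. The groups did not overlap for mogat2 and dgat1a under either scaling, and SBM 2 was the highest SBM library for both. fabp2, the intestinal fatty acid binding protein gene, overlapped, at 2161, 4722 and 1317 CPM in SBM libraries and 3967, 5478 and 5324 CPM in FM libraries. The list's median log2 fold change was -0.53, and -1.0 without SBM 2. SBM 2 was the library richest in hepatocyte genes, and apolipoprotein genes of this list are also made in liver. Across the list, the mean level relative to the average of the 6 libraries was -0.33, 0.88 and -1.10 log2 units in SBM 1 to SBM 3 and -0.01, 0.50 and 0.06 in FM 1 to FM 3, so as a mean the groups overlapped. bco1, which cleaves beta-carotene to retinal, had 124.7, 201 and 70.02 CPM in SBM libraries against 263, 446 and 259 CPM in FM libraries. It is one of 27 genes of carotenoid and vitamin A handling. In that list 5 (18.5%) lay below in every SBM library and none above, or 4 (14.8%) below with library totals alone.

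Of 31 genes for peptide and amino acid absorption, 11 (35.5%) lay below in every SBM library and none above, against 10.3% of all genes below. With library totals alone 6 (19.4%) lay below, against 2.9% of all genes. The list's median log2 fold change was -0.54. As a mean over the list the groups overlapped, with SBM 2 at 0.36 log2 units and FM 1 to FM 3 at 0.07, 0.40 and 0.28. anpepb, an aminopeptidase N gene, had 2727, 4252 and 3285 CPM in SBM libraries against 5654, 6805 and 6405 CPM in FM libraries. The meprin alpha genes mep1a.1 and mep1a.2 encode brush border metalloproteases. mep1a.1 had 528, 971 and 510 CPM in SBM libraries against 1055, 1391 and 1302 CPM in FM libraries, and mep1a.2 had 289, 678 and 330 CPM in SBM libraries against 746, 847 and 933 CPM in FM libraries. All 3 were free of overlap under both scalings, with log2 fold changes from -0.96 to -0.88. slc15a1b, a defining member of the list, overlapped, at 168, 357 and 135 CPM in SBM libraries and 195.5, 313 and 420.5 CPM in FM libraries. Of 24 sugar genes 4 (16.7%) lay below and 1 (4.17%) above, against 10.3% and 9.56% of all genes. With library totals alone 1 lay below and 1 above (4.17% each), against 2.9% and 12.5% of all genes. The list's median log2 fold change was -0.09 with TMM and 0.09 with library totals alone, against -0.01 and 0.26 for all genes. slc5a1, the sodium-glucose cotransporter gene, had 511, 904 and 643 CPM in SBM libraries and 870, 1234 and 940 CPM in FM libraries, which overlapped. tkfc, whose enzyme phosphorylates the glyceraldehyde formed from fructose, was lower in every SBM library, at 41.1, 53.9 and 43.2 CPM in SBM libraries against 74.4, 64.5 and 76.6 CPM in FM libraries. The sugar gene that lay above was pygl, whose values are given below.

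Bile acid recovery and protein uptake are tasks of more posterior segments. slc51a, a subunit of the basolateral bile acid exporter, had 42.6, 70.9 and 45.2 CPM in SBM libraries against 143, 114 and 84.0 CPM in FM libraries. slc10a2, the apical sodium-dependent bile acid transporter gene, had 362, 577 and 564 CPM in SBM libraries against 957, 1004 and 695 CPM in FM libraries, and its groups overlapped with library totals alone. fabp6, another defining gene of bile acid uptake, overlapped, at 3043, 6502 and 7144 CPM in SBM libraries and 6841, 7287 and 7744 CPM in FM libraries. In the list of 15 bile acid genes, 4 (26.7%) lay below and none above, against 10.3% and 9.56% of all genes. With library totals alone 1 lay below and 1 above (6.67% each), against 2.9% and 12.5% of all genes. Of 29 genes for lysosomal protein uptake, 7 (24.1%) lay below in every SBM library, against 10.3% of all genes. With library totals alone 1 (3.45%) lay below, near the 2.9% of all genes. cubn, a defining member of this list, overlapped, at 920, 1363 and 1739 CPM in SBM libraries and 1415, 1602 and 2079 CPM in FM libraries. tmigd1, an adhesion protein gene of the brush border, had 212, 355 and 330 CPM in SBM libraries against 526, 611 and 477 CPM in FM libraries. pllp, which encodes the endosomal membrane protein plasmolipin, had 87.5, 149 and 141 CPM in SBM libraries against 238, 168 and 170 CPM in FM libraries. ctsla, a cathepsin L gene, was the member that lay above, with 240, 186 and 116 CPM in SBM libraries and 64.8, 86.6 and 96.0 CPM in FM libraries.

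Ion transport genes were mixed, with 9 of 33 below in every SBM library (27.3%) and 4 above (12.1%), against 10.3% and 9.56% of all genes. With library totals alone 6 (18.2%) lay below, against 2.9% of all genes, and 4 (12.1%) above, against 12.5%. The sodium pump alpha subunits of enterocytes were among those below: atp1a1a.4 had 616, 691 and 737 CPM in SBM libraries against 952, 1254 and 1278 CPM in FM libraries, and the rarer atp1a1a.5 had 4.04, 4.93 and 5.70 CPM in SBM libraries against 11.9, 11.1 and 10.97 CPM in FM libraries. These genes are near copies of each other, as are the meprin, cyp2k and chitinase genes named here, and how reads were split between such copies is not given in the sources used here. slc26a3.2, of the family of intestinal chloride and bicarbonate exchangers, had 131, 196 and 126 CPM in SBM libraries against 279, 313 and 379 CPM in FM libraries. The chitinase genes chia.2 and chia.4 differed in direction. chia.2, the abundant enterocyte form, had 2474, 3523 and 1512 CPM in SBM libraries against 4167, 5568 and 4761 CPM in FM libraries, while chia.4 had 287, 11.7 and 41.9 CPM in SBM libraries against 7.91, 5.29 and 3.50 CPM in FM libraries. chia.4 was highest in SBM 1 and then SBM 3, the order of the oocyte markers.

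**Figure D2:**
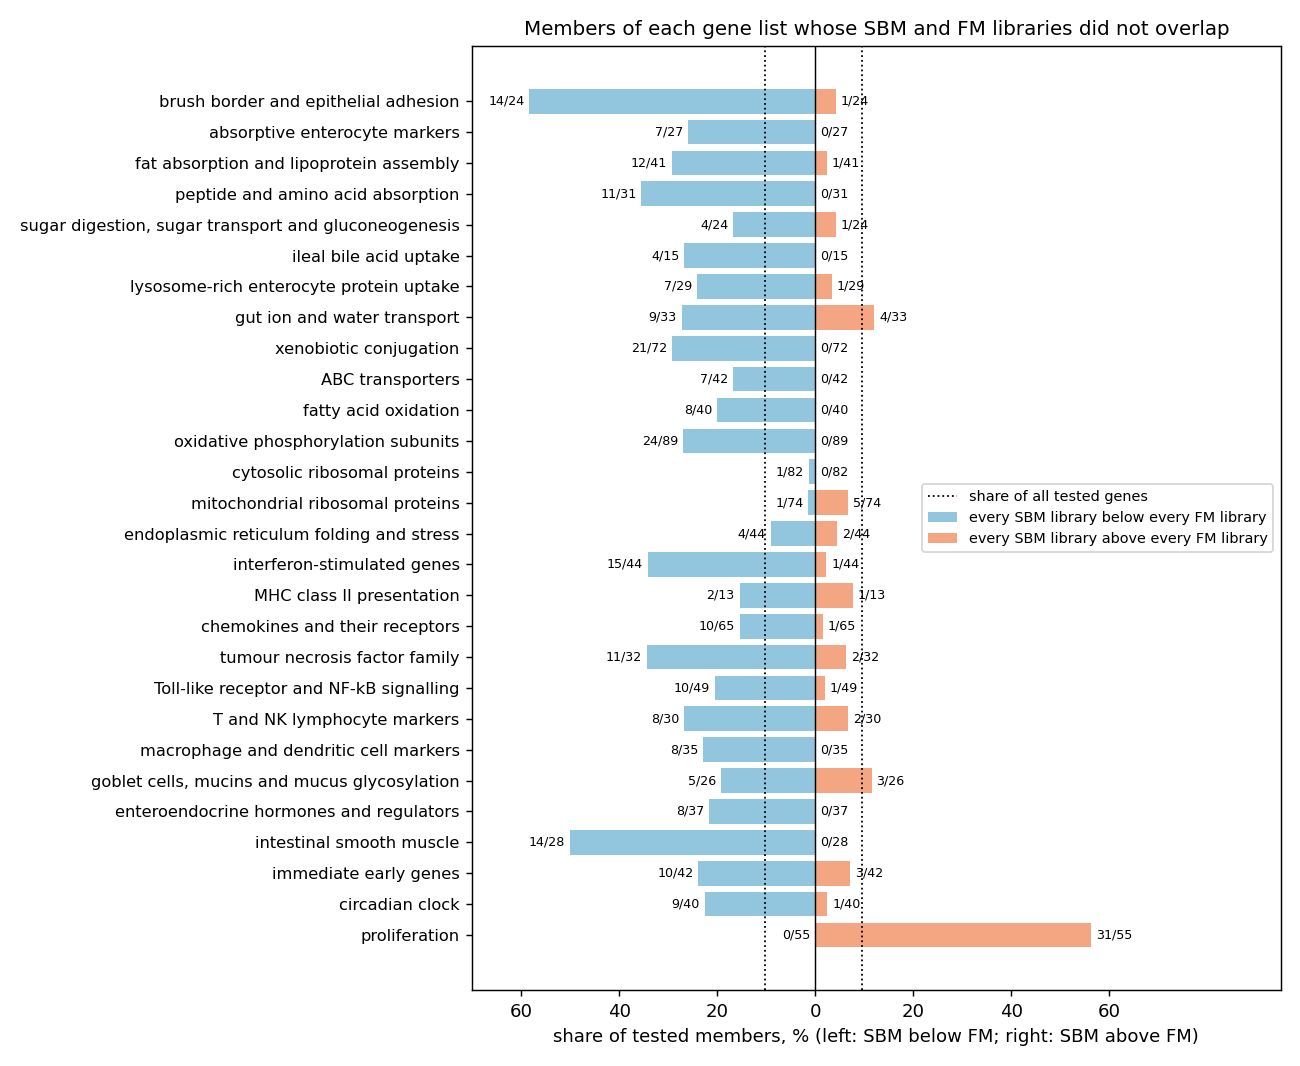
Share of the tested members of 28 gene lists, in percent, for which every SBM library lay below every FM library (bars to the left) or above (bars to the right), with TMM scaling and the counts written at the bar ends. Dotted lines mark the shares of all tested genes, 10.3% below and 9.56% above; brush border genes (14 of 24) and smooth muscle genes (14 of 28) have the longest bars to the left and proliferation genes (31 of 55) the longest to the right.

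Genes that conjugate foreign compounds and bile pigments had most of their separated members on the lower side. Of 72 genes for xenobiotic conjugation, 21 (29.2%) lay below in every SBM library and none above, against 10.3% of all genes below. With library totals alone 9 (12.5%) lay below, against 2.9% of all genes. At an unadjusted p under 0.05, 13 members were lower and none higher. The list's median log2 fold change was -0.51, and between -0.82 and -0.35 without each SBM library. The UDP-glucuronosyltransferases attach glucuronic acid to bilirubin, steroids and plant phenols. ugt1a2 had 21.1, 40.7 and 16.3 CPM in SBM libraries against 41.5, 71.8 and 52.3 CPM in FM libraries, ugt2a3 had 11.8, 22.4 and 12.4 CPM in SBM libraries against 22.8, 35.1 and 32.2 CPM in FM libraries, and ugt2b3 had 4.53, 4.87 and 3.23 CPM in SBM libraries against 12, 10.8 and 5.79 CPM in FM libraries. All but ugt2b3 kept the groups apart under both scalings. Of 42 ABC transporters, 7 (16.7%) lay below in every SBM library, against 10.3% of all genes, and 2 (4.76%) with library totals alone, against 2.9%. abcb4, of the P-glycoprotein family, had 564, 831 and 738 CPM in SBM libraries against 1102, 1398 and 1124 CPM in FM libraries. abcg2b, a paralogue of the mammalian breast cancer resistance protein, had 37.0, 68.3 and 73.2 CPM in SBM libraries against 91.7, 161 and 157 CPM in FM libraries. The median of the whole ABC list, -0.13, became 0.12 with library totals alone, while that of all genes went from -0.01 to 0.26.

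Beside hmox1a, haem and iron genes showed no shared direction. Of 43 tested, 21 had a positive and 22 a negative fold change. In this list 7 (16.3%) lay below in every SBM library and 2 (4.65%) above, against 10.3% and 9.56% of all genes. With library totals alone 4 (9.3%) lay below and 5 (11.6%) above, against 2.9% and 12.5% of all genes. flvcr2b, a transporter gene of the family first described for haem export, had 16.7, 18.8 and 18.1 CPM in SBM libraries against 28.3, 28.4 and 25.8 CPM in FM libraries. Many antioxidant enzymes share with hmox1a the control by Nrf2. Of 36 tested, 5 (13.9%) lay below and 1 above, against 10.3% and 9.56% of all genes. With library totals alone none lay below and 2 (5.56%) above, against 2.9% and 12.5% of all genes. Their median log2 fold change was -0.21 with TMM and 0.07 with library totals alone, against -0.01 and 0.26 for all genes. keap1a, whose protein holds Nrf2 in check, had 37.4, 70.4 and 62.4 CPM in SBM libraries against 99.4, 87.6 and 84.8 CPM in FM libraries. Among zinc and manganese transporters, slc30a1a, which exports zinc, had 38.9, 62.0 and 46.1 CPM in SBM libraries against 78.0, 80.2 and 81.6 CPM in FM libraries, and slc30a10, which exports manganese, had 55.4, 131 and 43.6 CPM in SBM libraries against 133, 185 and 152 CPM in FM libraries. slc39a8, an importer of both metals, had 2.06, 1.93 and 2.73 CPM in SBM libraries against 3.396, 5.71 and 9.45 CPM in FM libraries. The list of 22 metal genes had 4 members below (18.2%, against 10.3% of all genes) and none above. With library totals alone 2 lay below (9.09%, against 2.9% of all genes) and 1 above.

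Mitochondrial respiration genes had small and mostly negative fold changes. Of 89 oxidative phosphorylation genes, 87 had a negative fold change, against 9827 of all 19450 genes. In this list 24 (26.97%) lay below in every SBM library, against 10.3% of all genes, and none above. The size was small, with a median log2 fold change of -0.27. With library totals alone the median was -0.02, against 0.26 for all genes. On that scale 6 (6.74%) lay below, against 2.9% of all genes, and 2 above. Without SBM 1 the median was -0.17, and without SBM 2 it was -0.43. ndufa4, a subunit of cytochrome c oxidase, had 101, 162 and 145 CPM in SBM libraries against 322, 255 and 214 CPM in FM libraries. ndufa4l2a, its hypoxia-inducible paralogue, had 0.653, 0.914 and 1.44 CPM in SBM libraries against 3.099, 2.11 and 2.94 CPM in FM libraries. Both were free of overlap under either scaling. Cytosolic ribosomal protein genes also leaned one way, with 81 of 82 negative, but only 1 of them lay below in every SBM library. Their mean level relative to the average of the 6 libraries was -0.48, 0.29 and -0.38 log2 units in SBM 1 to SBM 3 and 0.08, 0.23 and 0.26 in FM 1 to FM 3. Mitochondrial ribosomal protein genes went the other way, with 59 of 74 positive and a median of 0.21 that shrank to 0.03 without SBM 1.

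Fatty acid synthesis genes had no shared direction, and cholesterol genes leaned lower in a way that depended on FM 1. fasn, the fatty acid synthase gene, had 34.05, 21.8 and 9.48 CPM in SBM libraries against 6.73, 4.95 and 5.92 CPM in FM libraries. elovl7a, a fatty acid elongase gene, had 20.9, 2.58 and 2.85 CPM in SBM libraries against 0.923, 1.48 and 0.712 CPM in FM libraries. These were 2 of the 3 members (15.8%) of a list of 19 that lay above, against 9.56% of all genes, with none below. With library totals alone 5 (26.3%) lay above, against 12.5% of all genes. The list's median of -0.08 became 0.10, 0.08, 0.07 and 0.06 without SBM 1, SBM 3, FM 1 and FM 2 in turn. It was -0.42 without SBM 2 and -0.12 without FM 3. With library totals alone it was 0.16, against 0.26 for all genes. Of 30 genes for cholesterol synthesis and uptake, 25 had a negative fold change. In this list 2 members lay below in every SBM library and 2 above (6.67% each), against 10.3% and 9.56% of all genes. With library totals alone 1 (3.33%) lay below and 3 (10%) above, against 2.9% and 12.5% of all genes. The list's median log2 fold change was -0.36, and 0.20 without FM 1. sc5d, a late enzyme of cholesterol synthesis, had 60.9, 113 and 74.8 CPM in SBM libraries and 157, 108 and 127 CPM in FM libraries. These overlapped, but with library totals alone every SBM library lay below every FM library.

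Interferon-stimulated genes lay below more often than above. Among 44 interferon-stimulated genes, 41 had a negative fold change. With TMM 15 (34.1%) lay below in every SBM library, against 10.3% of all genes, and 1 above. With library totals alone 11 (25%) lay below, against 2.9% of all genes. The list's median log2 fold change was -0.60. stat1b, a transcription factor of the interferon response, had 43.8, 87.0 and 86.4 CPM in SBM libraries against 213, 123.2 and 143 CPM in FM libraries. ifit15, of the interferon-induced proteins with tetratricopeptide repeats, had 130, 202 and 184 CPM in SBM libraries against 516, 293 and 355 CPM in FM libraries. cmpk2, a mitochondrial nucleotide kinase gene induced by interferon, had 4.31, 15.2 and 3.49 CPM in SBM libraries against 30.3, 19.96 and 18.4 CPM in FM libraries. FM 1 was the highest library for each, and SBM 1 or SBM 3 the lowest. Without FM 1 the list's median was -0.45, and without SBM 1 it was -0.43. isg15, the ubiquitin-like modifier, overlapped because of SBM 2, with 32.6, 228 and 24.7 CPM in SBM libraries and 310, 161 and 169 CPM in FM libraries.

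Most cytokine and chemokine genes named here were rare, and they lay below in SBM. il22, the interleukin that acts on gut epithelium, had 1.55, 1.34 and 2.87 CPM in SBM libraries against 5.34, 3.87 and 7.25 CPM in FM libraries. il20ra, a receptor chain of the same cytokine family, had 41.0, 47.8 and 46.6 CPM in SBM libraries against 86.5, 73.8 and 77.0 CPM in FM libraries. tnfb, a tumour necrosis factor gene of fish, had 1.91, 2.81 and 2.61 CPM in SBM libraries against 4.85, 6.37 and 4.82 CPM in FM libraries. For these 3 genes the groups stayed apart under both scalings. Among chemokines, ccl34b.1 had 1.74, 2.32 and 2.44 CPM in SBM libraries against 4.32, 7.94 and 9.55 CPM in FM libraries, and ccl20a.4 had 3.75, 6.40 and 4.57 CPM in SBM libraries against 14.8, 13.8 and 10.7 CPM in FM libraries. Over the lists, 6 of 39 interleukin genes and 10 of 65 chemokine genes lay below in every SBM library (15.4% each), against 10.3% of all genes. With library totals alone 2 (5.13%) and 5 (7.69%) did so, against 2.9% of all genes. The tumour necrosis factor family had 11 of 32 below (34.4%) and 2 above, and 3 (9.38%) below with library totals alone. Toll-like receptor and NF-kB genes had 10 of 49 below (20.4%) but none with library totals alone, against 10.3% and 2.9% of all genes. Their median was -0.21 with TMM and 0.06 with library totals alone, against -0.01 and 0.26 for all genes.

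Counts of leukocyte markers below in every SBM library fell with library totals alone, as did the share of all genes, from 10.3% to 2.9%. cd4-1, the co-receptor gene of helper T cells, was the clearest, at 3.73, 3.46 and 3.71 CPM in SBM libraries against 7.19, 6.52 and 8.06 CPM in FM libraries, apart under both scalings. lck, a kinase of the T cell receptor, had 8.13, 8.79 and 12.7 CPM in SBM libraries and 13.2, 15.5 and 13.8 CPM in FM libraries, while zap70, which acts with it, overlapped at 7.60, 10.6 and 13.4 CPM in SBM libraries and 13.9, 12.8 and 16.1 CPM in FM libraries. Of 30 T and NK cell markers 8 lay below (26.7%) and 2 above, against 2 below (6.67%) and 1 above with library totals alone. mpeg1.1, the perforin-like gene of macrophages, had 70.11, 85.8 and 109 CPM in SBM libraries and 140, 129 and 130 CPM in FM libraries. Of 35 macrophage and dendritic cell markers 8 (22.9%) lay below and none above, and none of them lay below with library totals alone. Neutrophil markers had a median of 0.02, with 3 of 28 (10.7%) below and none above, against 10.3% of all genes below. With library totals alone none lay below and 5 (17.9%) above, against 12.5% of all genes above. ifi30, the lysosomal thiol reductase of antigen processing, had 532, 1240 and 1092 CPM in SBM libraries against 1598, 1732 and 1791 CPM in FM libraries. cd74a, the invariant chain of MHC class II, overlapped at 450, 506 and 836 CPM in SBM libraries and 881, 826 and 850 CPM in FM libraries.

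**Figure D3:**
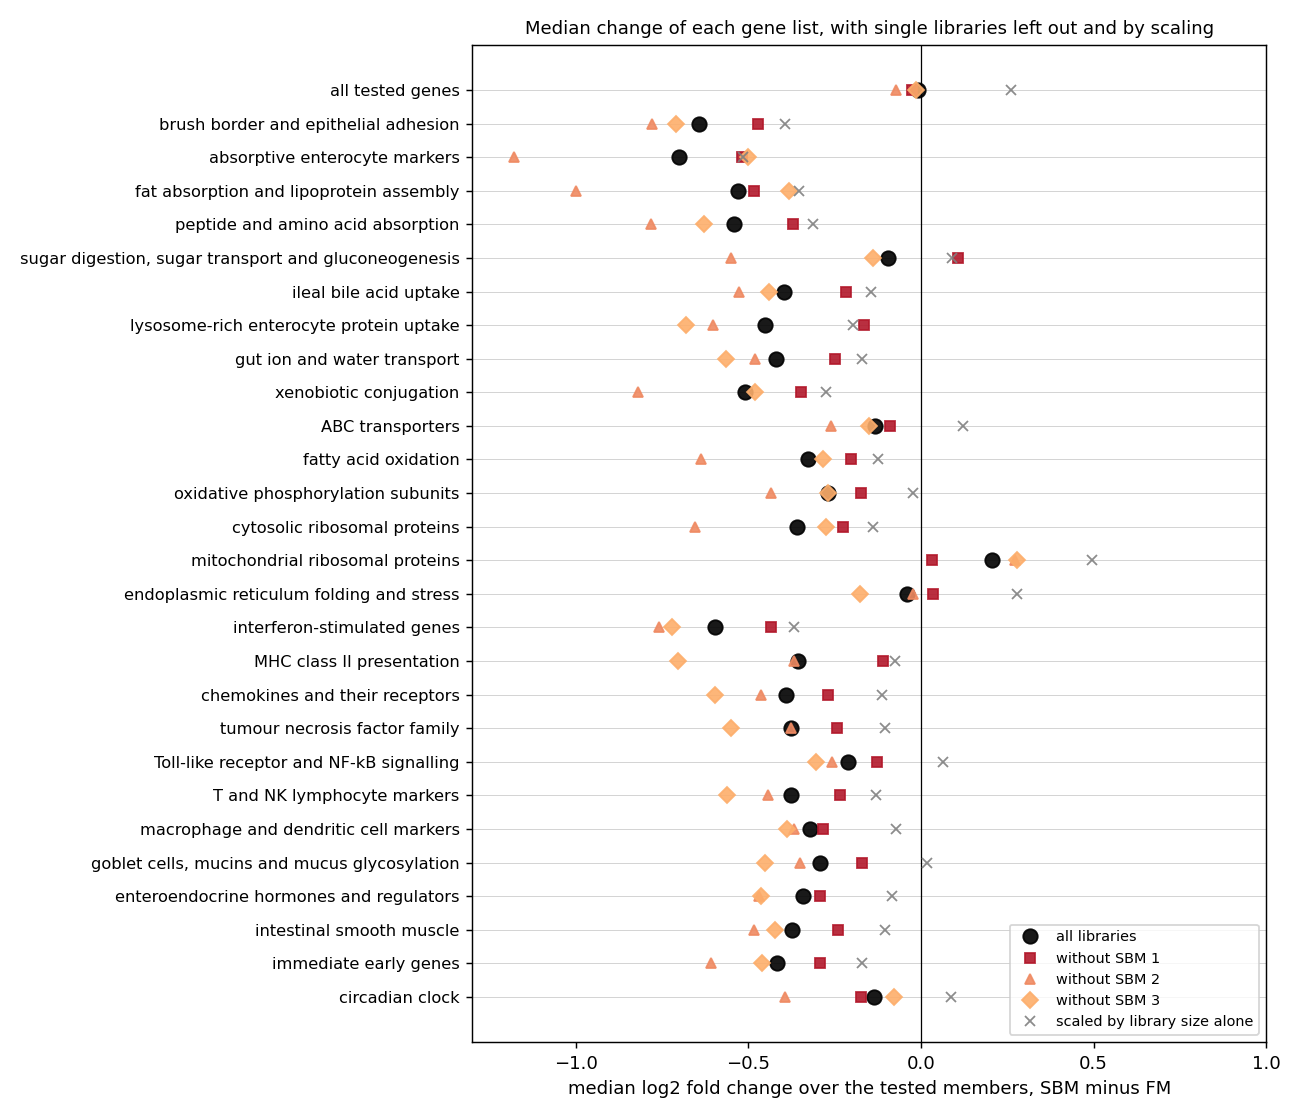
Median log2 fold change, SBM minus FM, of 27 gene lists and of all tested genes with all libraries (black), with each SBM library left out (red, orange and yellow marks) and with scaling by library size alone (grey crosses). Brush border, absorption, conjugation and interferon lists stay below 0 under all 5, at -0.64, -0.70, -0.51 and -0.60 with all libraries, while sugar, ABC transporter, Toll-like receptor, goblet cell, endoplasmic reticulum and clock lists cross 0 with library size alone. The median of all tested genes also moves, from -0.01 to 0.26, with library size alone.

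Secretory lineages, wall and stress genes showed differences of modest size. Goblet cell genes had 5 of 26 below (19.2%) and 3 above (11.5%), against 10.3% and 9.56% of all genes. With library totals alone none lay below, against 2.9% of all genes. agr2, the disulfide isomerase needed for mucin folding, overlapped at 59.3, 95.2 and 114 CPM in SBM libraries and 173, 139 and 110 CPM in FM libraries. Enteroendocrine genes had 8 of 37 below (21.6%, against 10.3% of all genes) and none above. With library totals alone 1 lay below (2.7%), close to the 2.9% of all genes. scg3, a secretory granule gene, had 16.7, 29.2 and 28.3 CPM in SBM libraries against 38.4, 43.6 and 33.95 CPM in FM libraries. Smooth muscle genes had 14 of 28 below in every SBM library (50.0%) with TMM, against 10.3% of all genes. With library totals alone 2 (7.14%) lay below, against 2.9% of all genes. The number of separated members thus depended on the scaling, as did that of all genes. myl9b, a myosin light chain gene, had 42.6, 40.9 and 46.3 CPM in SBM libraries against 95.2, 56.1 and 79.2 CPM in FM libraries. desmb, a desmin gene, had 106, 144 and 115 CPM in SBM libraries against 184, 200 and 173 CPM in FM libraries and stayed apart under both. acta2, smooth muscle actin, overlapped at 438, 722 and 598 CPM in SBM libraries and 661, 864 and 872 CPM in FM libraries.

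Among genes that respond within minutes to signals, 10 of 42 lay below in every SBM library (23.8%) and 3 above, against 10.3% of all genes below. With library totals alone 4 (9.52%) lay below, against 2.9% of all genes. dusp5, a phosphatase that switches off ERK, averaged 9.86 ± 0.855 CPM in SBM libraries against 18.1 ± 3.46 CPM in FM libraries (SD, n = 3 each), without overlap. fosl2, an AP-1 subunit, had 10.5, 18.0 and 12.01 CPM in SBM libraries against 29.9, 23.5 and 25.3 CPM in FM libraries. The clock genes had 9 of 40 below (22.5%), or 4 (10%) with library totals alone, against 10.3% and 2.9% of all genes. per2, a light-responsive repressor of the zebrafish clock, stood at 33.0 CPM in all 3 SBM libraries against 41.3, 49.7 and 53.4 CPM in FM libraries, and rorab, of the ROR nuclear receptors, had 29.4, 51.3 and 37.6 CPM in SBM libraries against 79.5, 60.9 and 61.8 CPM in FM libraries. The hour of sampling is not given in the labels used here. Folding genes of the endoplasmic reticulum had 4 of 44 below (9.09%) and 2 above (4.55%), against 10.3% and 9.56% of all genes. With library totals alone none lay below and 4 (9.09%) above, against 2.9% and 12.5% of all genes. ero1a, the oxidase that supplies disulfide bonds, had 20.7, 28.1 and 30.1 CPM in SBM libraries against 53.8, 39.4 and 42.0 CPM in FM libraries, and hspa5, the chaperone BiP, overlapped at 691, 133 and 254 CPM in SBM libraries and 168, 108 and 177 CPM in FM libraries.

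**Figure D4:**
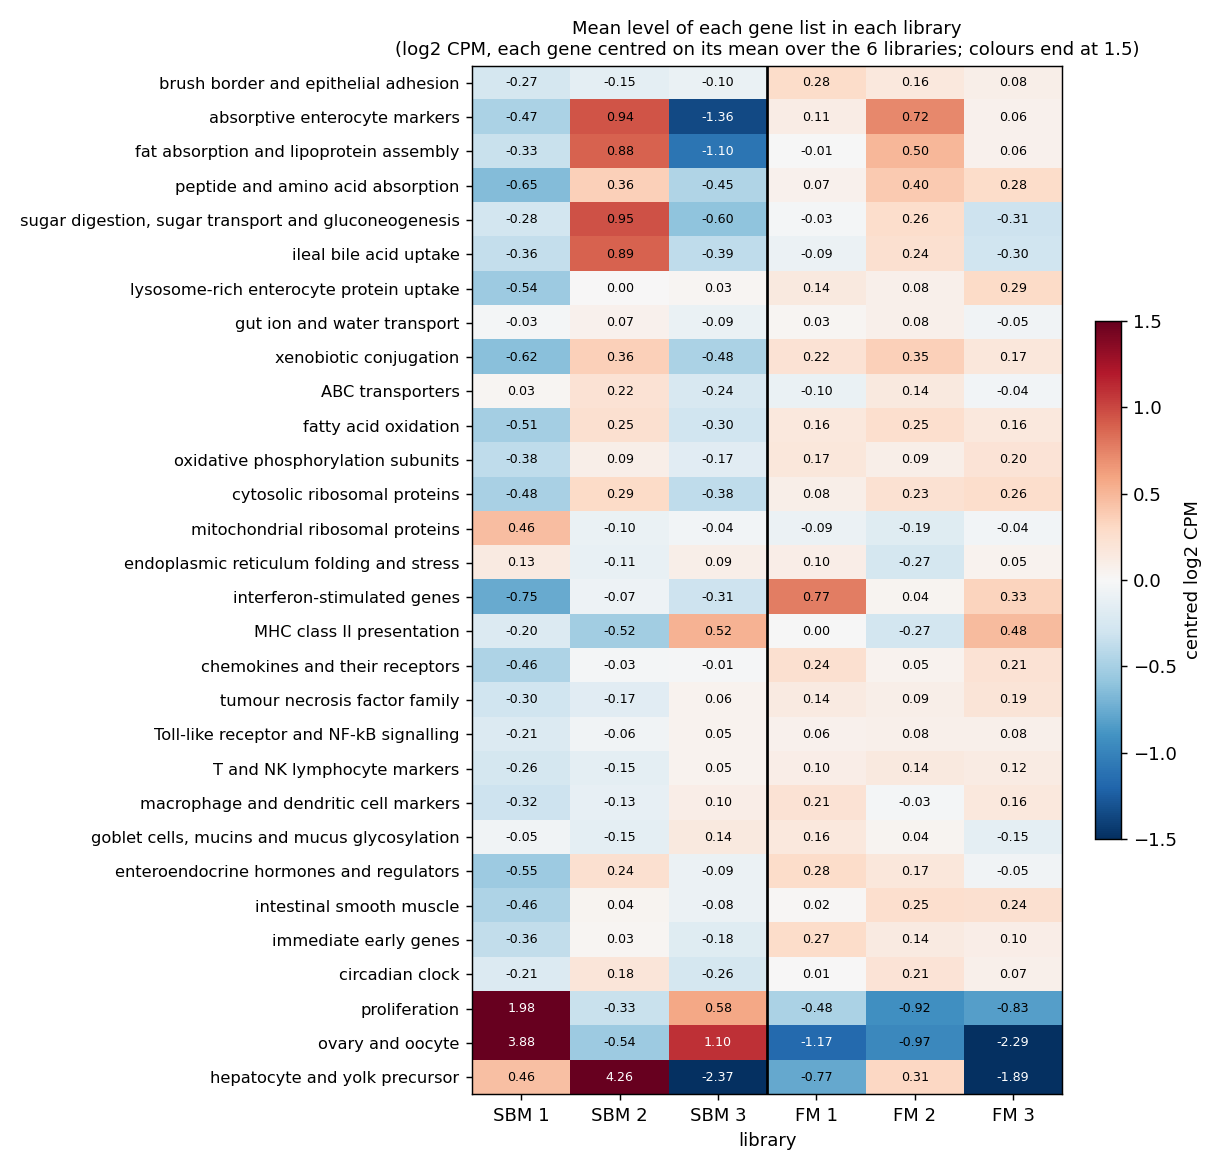
Mean level of 30 gene lists in each library, in log2 CPM with each gene centred on its mean over the 6 libraries, with SBM libraries to the left of the line and FM libraries to the right. The oocyte list reaches 3.88 in SBM 1 and the hepatocyte list 4.26 in SBM 2, proliferation genes reach 1.98 in SBM 1, and the absorptive enterocyte list differs more within SBM (0.94 in SBM 2, -1.36 in SBM 3) than between the group means.

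Genes higher in SBM were led by cell division and by genes of neighbouring organs. Of 55 proliferation genes, 31 (56.4%) lay above in every SBM library and none below, against 9.56% of all genes above. With library totals alone 28 (50.9%) of these 55 lay above, against 12.5% of all genes. Their median log2 fold change was 1.95, and 0.96 without SBM 1. foxm1, a transcription factor of the G2 and M phases, had 17.5, 7.51 and 6.25 CPM in SBM libraries against 3.36, 1.81 and 1.81 CPM in FM libraries. racgap1, a regulator of cytokinesis, had 22.9, 5.36 and 7.11 CPM in SBM libraries against 2.47, 2.33 and 2.56 CPM in FM libraries. mki67, which marks cycling cells, was less clear, at 60.8, 22.11 and 43.6 CPM in SBM libraries and 23.2, 12.02 and 19.4 CPM in FM libraries, which overlapped. The oocyte list moved with them: 28 of 36 members (77.8%) lay above in every SBM library and none below, or 25 (69.4%) above with library totals alone. The list's mean level relative to the average of the 6 libraries was 3.88, -0.54 and 1.1 log2 units in SBM 1 to SBM 3 and -1.17, -0.97 and -2.29 in FM 1 to FM 3. For proliferation the same measure was 1.98, -0.33 and 0.58 in SBM and -0.48, -0.92 and -0.83 in FM, which puts the libraries in the same order within SBM. zp3, an egg envelope gene, had 570, 26.6 and 69.4 CPM in SBM libraries and 17.3, 23.3 and 7.54 CPM in FM libraries. ddx4, the germ cell helicase vasa, had 48.3, 8.26 and 5.29 CPM in SBM libraries and 1.25, 1.42 and 0.356 CPM in FM libraries. Testis and sperm genes were also apart: 14 of 27 (51.9%) lay above in every SBM library and none below, or 16 (59.3%) above with library totals alone. Their median log2 fold change was 3.70, 2.45 without SBM 1 and 2.36 without SBM 2. Their mean level was 1.81, 1.68 and 0.12 log2 units in SBM 1 to SBM 3 and -0.99, -0.73 and -1.88 in FM 1 to FM 3. They took 0.00956% to 0.0603% of the counts in SBM libraries and 0.00136% to 0.00281% in FM libraries. The oocyte and testis lists were both drawn up with ddx4 and dazl. Oocytes and dividing germ cells carry transcripts of the cell cycle, and the part of ovary or testis RNA in these values was not tested.

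Other genes selected on the higher side were cyp2x7, zbtb16a, pygl, cpeb4a, enpp1, gcat, fhdc3, ano5b and mibp. zbtb16a, the zinc finger repressor known as PLZF in mammals and inducible by glucocorticoids there, had 18.7, 14.1 and 22.8 CPM in SBM libraries against 3.30, 6.25 and 2.49 CPM in FM libraries. Its log2 fold change was 2.21 ± 0.50 (SE), ranged from 1.95 to 2.67 when each library was left out, and had a DESeq2 adjusted p of 0.018. This gene was highest in SBM 3, the oocyte and testis lists in SBM 1 and the hepatocyte list in SBM 2. The part of ovary, testis or liver RNA in its value was not tested. cyp2x7, a cytochrome P450 of a fish subfamily, had 33.2, 14.9 and 6.03 CPM in SBM libraries against 1.98, 2.11 and 1.13 CPM in FM libraries. enpp1, which makes pyrophosphate from extracellular ATP, had 25.3, 17.2 and 10.8 CPM in SBM libraries against 5.44, 9.36 and 7.12 CPM in FM libraries, and gcat, an enzyme of threonine breakdown, had 27.1, 21.2 and 10.3 CPM in SBM libraries against 7.52, 7.49 and 6.70 CPM in FM libraries. Each of cyp2x7, enpp1 and gcat was highest in SBM 1 and lowest in SBM 3 within the SBM group. pygl, liver glycogen phosphorylase, had 68.0, 140 and 8.81 CPM in SBM libraries against 5.14, 8.79 and 1.91 CPM in FM libraries. The hepatocyte gene fabp10a was also highest in SBM 2, with 197, 3915 and 32.1 CPM in SBM libraries and 184, 297 and 39.6 CPM in FM libraries. Without SBM 2 the log2 fold change of pygl was 2.84 and that of fabp10a was -0.62. The part of liver RNA in the value of pygl was not tested. fhdc3, mibp and the unnamed si:zfos-1505d6.3 and LOC108179134 were highest in SBM 1, at 28.2, 145, 92.1 and 46.3 CPM. Without SBM 1 the log2 fold change of LOC108179134 was 1.86, against 4.50 with it, and that of mibp was 1.27, against 2.62. Of 87 collagen and matrix genes, 9 (10.3%) lay above and 11 (12.6%) below, close to the 9.56% and 10.3% of all genes. With library totals alone 15 (17.2%) lay above and 1 (1.15%) below, against 12.5% and 2.9% of all genes. col6a4a, a collagen VI chain gene, had 6.66, 7.12 and 1.65 CPM in SBM libraries against 1.35, 0.966 and 1.62 CPM in FM libraries.

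**Figure D5:**
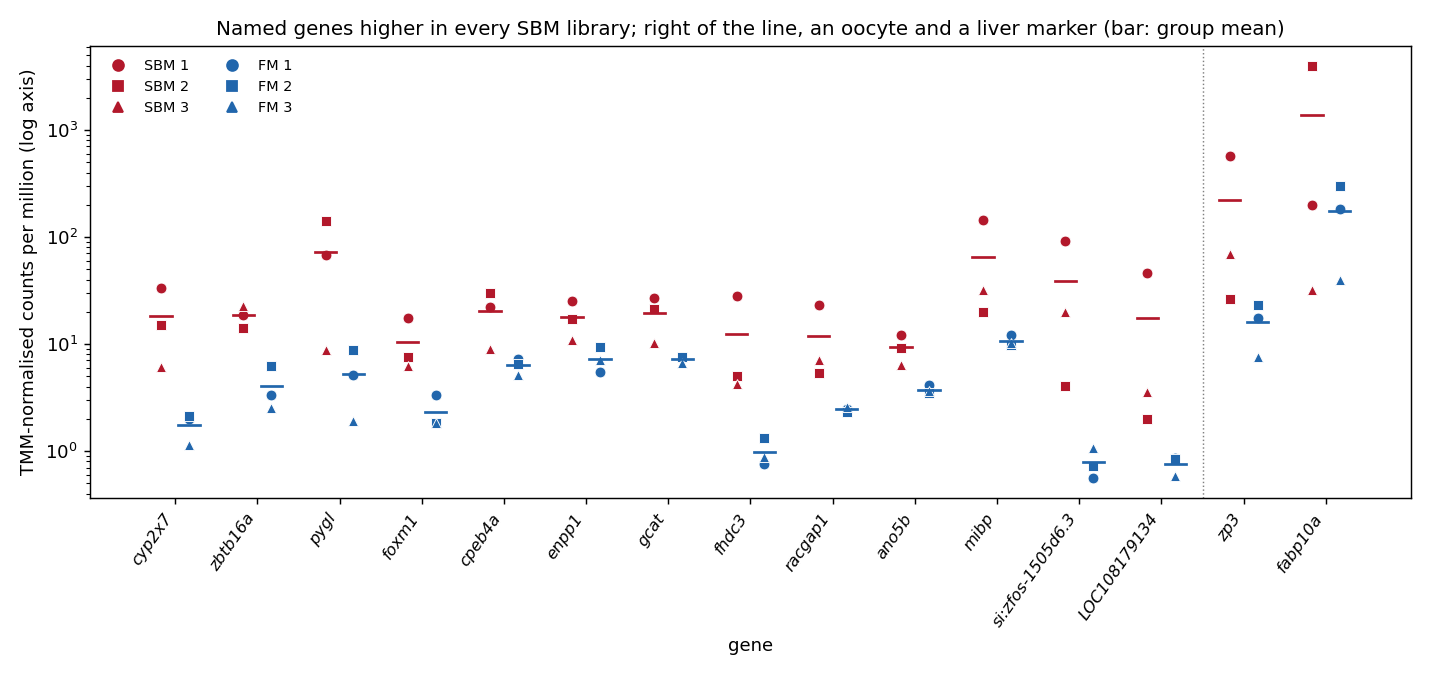
CPM (log axis) of 13 genes with the smallest p among those higher in every SBM library, with a mean of at least 5 CPM and outside the lists of other organs, and, right of the dotted line, the oocyte gene zp3 and the hepatocyte gene fabp10a, with SBM libraries in red to the left of FM libraries in blue and a bar at each group's mean. SBM 1 (circle) is the highest SBM library for 10 of the 13 and for zp3, while zbtb16a has its 3 SBM values between 14.1 and 22.8 CPM.

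In a scaling chosen after the data were seen, libraries were aligned on the 24 brush border and epithelial adhesion genes, which moved the median log2 fold change of all genes to 0.57. On that scale 33 genes were lower and 2930 higher at an unadjusted p under 0.05, and no gene was called by edgeR, the smallest adjusted p being 0.283. Among the 33 were hmox1a with a log2 fold change of -2.22, crp6 with -2.76, pglyrp6 with -1.82, ccl34b.1 with -1.19, il22 with -0.96, ndufa4l2a with -0.91, ydjc with -0.87, cyp2k18 with -0.75, ifit15 with -0.64 and stat1b with -0.62. These genes had been named for their low values in SBM, so these fold changes are a description. The medians of the fat absorption list, at 0.02, the peptide list, at -0.02, and the conjugation list, at 0.02, lay near 0 on this scale, and the interferon-stimulated list was at -0.06. The brush border list itself was at -0.09, and all genes at 0.57. As the genes used for the alignment had been low in SBM, a value near 0 here means a change similar to theirs, not no change.

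Of the genes named above without overlap on the lower side, vegfaa, atp1a1a.4, ezra, slc10a2, pllp, ugt2b3, abcg2b, keap1a, slc39a8, ero1a, per2, lck, mpeg1.1, scg3 and myl9b overlapped with library totals alone. The others named as lower without overlap stayed apart under both scalings.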

How the data were processed

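Intestinal RNA was extracted with an RNeasy kit and made into libraries with a SMARTer mRNA kit, per the labels' protocols. The authors deposited a table of whole-number counts and a table of FPKM, a length-normalised level, each with 26983 gene names and 9 libraries. For the aligner, counting program, genome build, annotation and strand setting, the sources used here say nothing. The counts were analysed with edgeR 4.0.16 in R 4.3.3: genes were filtered with a minimum count of 10, scaled by TMM, and fitted over all 9 libraries with a quasi-likelihood test of SBM minus FM and Benjamini-Hochberg adjustment (threshold 0.05). DESeq2 1.42.0, limma 3.58.1 (voom, and log2 of the deposited FPKM plus 0.1 or 1) and other scalings were alternatives. The steps were tested on simulated data. Deposited names were matched to 63 gene lists by symbol or by RefSeq synonym; assembly names served for names only, and promoter sequences were not used here. The members and lists were chosen with earlier results of these data known. Named genes were the 12 with the smallest p per direction among those with no overlap between groups, a mean of at least 5 CPM and no place in a list of another organ, 2 more per direction without a descriptive name, and in each list the 3 with the smallest p and its defining members; some of these are not reported here. Scaling to brush border genes, DESeq2 on filtered genes, and the counts of separated genes with library totals were added after the data were seen. At 34436497 to 36203230 counts per library, the spread between libraries, more than depth, limited the precision.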

Additional observations from a re-analysis of the deposited data

How the results depend on the processing

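No gene was called in any setting other than DESeq2, which called 135 genes with its own filter and 113 on the genes that passed the edgeR filter; the cause was not tested. With each library of SBM or FM left out in turn, the count of called genes was 0 in each case. At an unadjusted p under 0.05, leaving out 1 library gave 244 to 1694 higher and 329 to 1213 lower genes, the fewest higher without FM 3 and the fewest lower without SBM 1. Library size alone gave 1738 higher and 228 lower, against 1075 and 663 with TMM. Without the 3 libraries highest in hepatocyte genes, 3168 were higher and 1553 lower. Deviations of same-numbered SBM and FM libraries correlated at 0.073, 0.183 and 0.288, and those of differently numbered libraries at -0.340 to 0.086. SBM 1 correlated slightly better with FM 2 (0.086) than with FM 1. With 3 libraries per group, these values could not settle whether the replicate numbers pair the samples. The main fit used no pairing. The replicate block called 0 genes, with 430 higher and 497 lower at an unadjusted p under 0.05.

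slc15a1b, fabp6 and cubn were not followed across the settings. The other named genes kept their direction in every setting except as follows. Scaled to brush border genes, values turned positive for cdh1 (0.209), per2 (0.0427), cd74a (0.0319), lck (0.037), zap70 (0.0988) and acta2 (0.101). The liver gene fabp10a turned negative without the 3 libraries highest in hepatocyte genes (-0.649), and with single libraries left out it ran between -0.616, without SBM 2, and 3.62. Of the list medians recomputed under the alternatives, 986 moved by less than the spread between libraries and 211 by more. Rare transcripts such as crp6 and ndufa4l2a rest on few counts. The promoter motif description was not run.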
